A study of Homo sapiens with 9 samples.

Results

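The genes described here are 8 keratin genes, KRT7, KRT8, KRT10, KRT18, KRT19, KRT20, KRT23 and KRT80, grouped as simple epithelial keratins, out of 61806 gene identifiers in the deposited count table. Identifiers were matched to the gene symbols and keratin pseudogenes were left out. KRT7 was chosen by its measured level, which was lower with both siRNAs, so its difference from control is given as a description without a test. KRT10, a keratin of the suprabasal epidermis, and KRT80, a keratin found in many kinds of epithelium, are not usually counted among the keratins of simple epithelia, and they are kept here under the same list. The RNA came from HCT116 cells, a human colorectal cancer line in long use, with 3 sequencing libraries per group. Cells of the first group were transfected with siRNA 1, which targets the long non-coding RNA EXOSC10-AS1, those of the second with siRNA 2 against the same RNA, and those of the control group with a control siRNA. All 9 libraries came from the same cell line transfected with Lipofectamine RNAiMax, and all carry the batch entry of day 3. Whether a group's libraries were grown as separate cultures is not in the labels, so p-values measure the spread between these libraries, which may be technical.

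Keratins are the intermediate filaments of epithelial cells. They assemble as obligate pairs of a type I and a type II protein, and the unpaired partner is usually degraded. KRT8 and KRT18 are the first pair made in simple epithelia, KRT19 is a further type I partner in glands and gut, KRT20 is a type I keratin of differentiated intestinal epithelium, and KRT7 is a type II keratin of ducts and other glandular linings that is mostly low in normal colon. Pathologists read KRT7 and KRT20 together to judge where a carcinoma arose. Here KRT7, KRT8 and KRT80 are the type II members, and KRT10, KRT18, KRT19, KRT20 and KRT23 are the type I members.

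With siRNA 2, KRT20 and KRT23 rose and KRT8, KRT10, KRT18, KRT19 and KRT80 fell. With siRNA 1, none of these 7 genes passed the test. KRT7 was below control with both siRNAs, and lowest with siRNA 1. The siRNAs differed from each other in KRT7, KRT20, KRT23 and KRT80. Genes count as called where the adjusted p fell below 0.05 in edgeR's quasi-likelihood test, with Benjamini-Hochberg adjustment over all 20868 genes that passed a filter on low counts, and all 8 keratins passed that filter. Over all tested genes, 7.08% were called with siRNA 1, 13.8% with siRNA 2 and 22.4% between the siRNAs. The comparisons of siRNA 1 and of siRNA 2 with control share the same 3 control libraries. The siRNA 2 calls of KRT8, KRT10, KRT18 and KRT19 were each lost without any single control library, or without siRNA 2 replicate 2 or 3. After a trend with GC content was removed from each library, KRT8, KRT18 and KRT19 were also called lower with siRNA 1. KRT20 was then called higher with siRNA 1. The KRT18 and KRT19 falls were then larger with siRNA 1 than with siRNA 2.

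Deposited counts totalled 56.8 to 66.5 M per library. EXOSC10-AS1 itself had 4, 0 and 0 counts with siRNA 1, 5, 13 and 0 with siRNA 2, and 26, 4 and 14 in control. The libraries of each siRNA were not equally close together. Across 13273 genes, which are not independent replicates, expression relative to the control mean was correlated with GC content. The correlation was 0.538 in siRNA 1 replicate 1, and -0.506 and -0.513 in siRNA 2 replicates 2 and 3. It ran from -0.167 to 0.0527 in the other 6 libraries. These include the control libraries, which make up that mean and so lie near 0 in part by construction. Keratin changes are therefore also given after a GC trend was removed from each library, where this changed a call or moved the size by more than 1.5 times. Among 10 colon epithelium markers, 8 passed the filter. The 10 genes summed to 819.5 to 845.1 CPM (counts scaled to the size of the library) with siRNA 1, 549.6 to 630.3 CPM with siRNA 2 and 708.5 to 721.3 CPM in control. Most of the sum came from EPCAM, CDH1, CLDN4, CLDN7 and ESRP1. CDH17 averaged 0.0968 to 0.177 CPM and GPA33 0.273 to 0.453 CPM over the groups. LGALS4 did not pass the filter, and VIL1 had 0 counts in every siRNA library and at most 5 counts in a control library. With siRNA 1, 5 of the 8 tested were higher and 3 lower than control, and with siRNA 2, 3 were higher and 5 lower. The part of these marker changes in the keratin results was not tested. The keratinocyte markers summed to 0.982 to 1.87 CPM with siRNA 1, 1.64 to 2.14 CPM with siRNA 2 and 0.886 to 1.08 CPM in control, with IVL and LORICRIN at 0 throughout. The leukocyte markers summed to 0.858 to 1.42 CPM with siRNA 1, 1.53 to 2.13 CPM with siRNA 2 and 1.82 to 2.57 CPM in control, with PTPRC and CD3E at 0 throughout. The 6 fibroblast markers, almost all of them COL1A1 reads, summed to 46.9 to 52.4 CPM with siRNA 1, 36.1 to 40.3 CPM with siRNA 2 and 59.5 to 61.3 CPM in control.

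Levels per length, as CPM per kilobase of the longest transcript, ran over a wide range, with 3 abundant keratins and 5 low ones. KRT19 was at 1186 ± 128 with siRNA 1, 1077 ± 119 with siRNA 2 and 1400 ± 25.9 in control (SD, n = 3 each). KRT8 was at 596 ± 67.9 with siRNA 1, 517 ± 57.2 with siRNA 2 and 681 ± 8.71 in control, and KRT18 was at 301 ± 32.7 CPM per kilobase with siRNA 1, 285 ± 18.4 with siRNA 2 and 351 ± 6.54 in control. These 3 genes kept the same order in all groups, with KRT19 highest. Together KRT8, KRT18 and KRT19 held 0.337% to 0.466% of a library's counts. KRT23 was at 6.33 ± 0.717 CPM per kilobase with siRNA 1, 13.1 ± 0.476 with siRNA 2 and 5.77 ± 0.328 in control, and KRT10 was at 8.24 ± 0.553 with siRNA 1, 6.75 ± 0.610 with siRNA 2 and 8.88 ± 0.337 in control. KRT7 was at 1.84 ± 0.0636 CPM per kilobase with siRNA 1, 2.83 ± 0.174 with siRNA 2 and 5.96 ± 0.293 in control. KRT80 was at 1.76 ± 0.254 with siRNA 1, 0.861 ± 0.135 with siRNA 2 and 2.14 ± 0.0459 in control, and KRT20 was at 0.517 ± 0.120 with siRNA 1, 1.05 ± 0.230 with siRNA 2 and 0.255 ± 0.0252 in control. Neighbours in this order overlapped between libraries for KRT7 and KRT80 with siRNA 1, for KRT20 and KRT80 with siRNA 2, and for KRT7 and KRT23 in control, and all other neighbours were separated. KRT7 stood directly above KRT23 in the control order and below both KRT10 and KRT23 with each siRNA. KRT23 moved above KRT10, and KRT20 above KRT80, only in the order with siRNA 2, but the KRT20 and KRT80 values overlapped there. With the shortest coding transcript as the length, KRT8 stood above KRT19 and the other 6 ranks were kept.

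**Figure D1:**
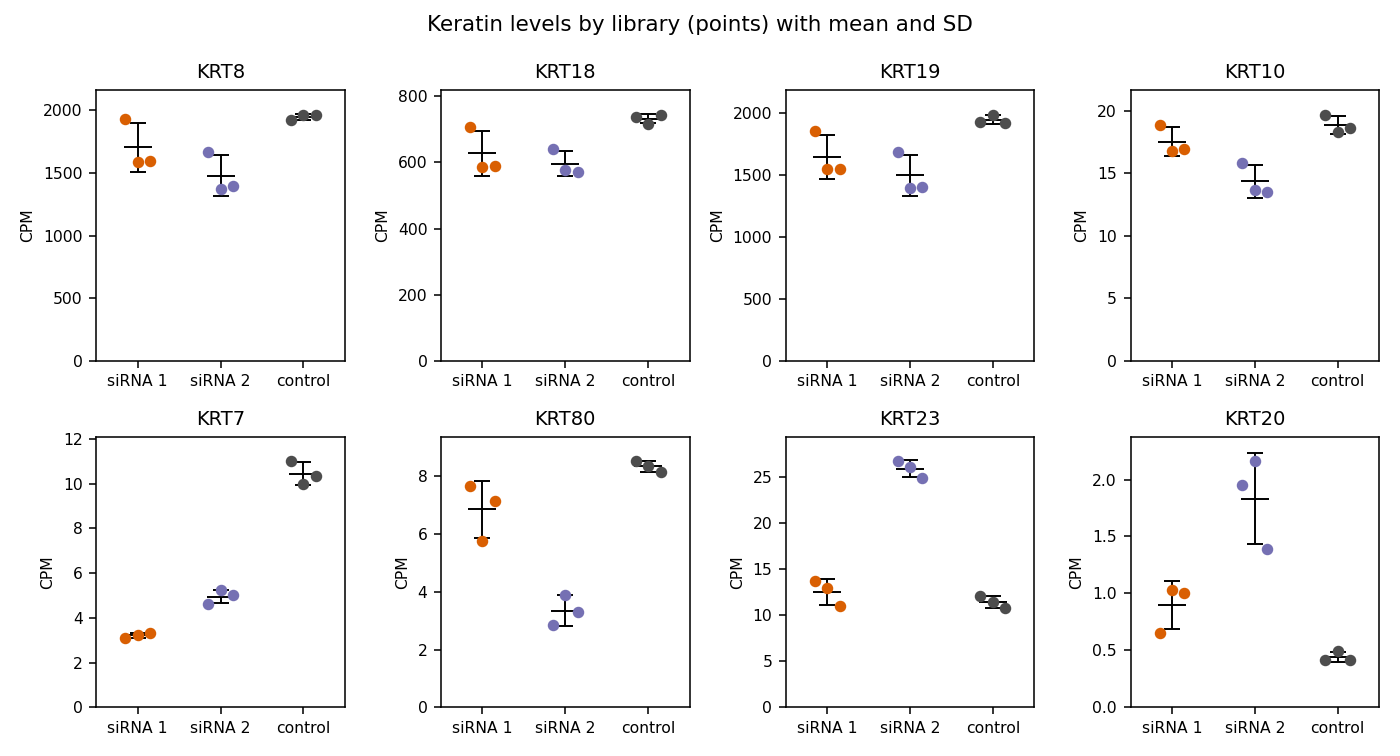
CPM of the 8 keratin genes (linear axes that start at 0) in each library with siRNA 1, siRNA 2 and control, with group mean and SD. KRT7 lies lower in every siRNA library than in every control library, and KRT20 and KRT23 lie highest with siRNA 2.

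KRT7 had 189, 208 and 221 counts in the siRNA 1 libraries, 285, 315 and 321 counts in the siRNA 2 libraries, and 660, 567 and 642 counts in the control libraries. In CPM this was 3.22 ± 0.112 with siRNA 1, 4.96 ± 0.306 with siRNA 2 and 10.45 ± 0.515 in control (SD, n = 3 each). The libraries of the 3 groups did not overlap, with siRNA 1 lowest and control highest. The log2 change was -1.70 ± 0.12 with siRNA 1 and -1.08 ± 0.12 with siRNA 2 (standard error), and since these values chose the gene they carry no test. In bulk RNA, fewer cells of a type and less RNA per cell cannot be told apart. The difference between the siRNAs was not used to choose KRT7. Between siRNA 2 and siRNA 1 the log2 change was 0.62 ± 0.12 (edgeR, adjusted p = 0.0059), with all 3 siRNA 2 libraries above all 3 siRNA 1 libraries. KRT7 has the highest GC content of the 8 genes, at 62.9%. After the GC trend was removed, the change was -1.72 with siRNA 1 and -0.74 with siRNA 2, and 0.98 between the siRNAs. Relative to the control mean, the siRNA 1 libraries were then at -1.96, -1.62 and -1.58, against -1.74, -1.68 and -1.64 before. Those of siRNA 2 were at -1.08, -0.55 and -0.62, against -1.17, -0.99 and -1.06 before. For KRT7 the removal thus set the libraries of each siRNA further apart, and which values are closer to the true change was not tested. KRT7-AS, the antisense gene that shares 282 exon bases with KRT7, had 4 to 13 counts with siRNA 1, 0 to 17 with siRNA 2 and 4 to 16 in control. The pseudogene KRT87P shares 32 exon bases with KRT7 on the opposite strand. It had 0 counts in every siRNA library and 0 to 15 in control. The strand used for counting was not given in the sources used here. Reads of genes that overlap on opposite strands therefore cannot be told apart.

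KRT7 was a small part of the type II keratins measured here, most of which was KRT8. Of the type II member signal per length, KRT7 made up 0.310% ± 0.0424 with siRNA 1, 0.549% ± 0.0877 with siRNA 2 and 0.865% ± 0.0531 in control (SD, n = 3 each). This share was lowest with siRNA 1, and no library of either siRNA reached a control library. Its difference from control restates the lower level by which KRT7 was chosen and is only a description.

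KRT8, the main type II keratin of simple epithelia, had 1929, 1592 and 1594 CPM with siRNA 1, 1668, 1372 and 1399 CPM with siRNA 2, and 1921, 1966 and 1962 CPM in control. All siRNA 2 libraries lay below all controls, while siRNA 1 replicate 1 lay within the control range. The log2 change was -0.40 ± 0.09 with siRNA 2 (edgeR, adjusted p = 0.019) and -0.19 ± 0.09 with siRNA 1 (adjusted p = 0.23). Its partner KRT18 had 706.7, 587.3 and 589.7 CPM with siRNA 1, 640.1, 575.4 and 572.0 CPM with siRNA 2, and 735.6, 717.3 and 744.0 CPM in control. Both siRNA groups lay below control without overlap, and the log2 change of KRT18 was -0.30 ± 0.08 with siRNA 2 (adjusted p = 0.035), while the siRNA 1 change was -0.22 ± 0.08 (adjusted p = 0.12). KRT19, a type I keratin of gut and glands, had 1854, 1547 and 1545 CPM with siRNA 1, 1687, 1399 and 1403 CPM with siRNA 2, and 1928, 1987 and 1923 CPM in control. Both siRNA groups of KRT19 were below all controls, and the log2 change was -0.38 ± 0.09 with siRNA 2 (adjusted p = 0.021), beside -0.24 ± 0.09 with siRNA 1 (adjusted p = 0.14). Within siRNA 2, the replicates with the negative GC trend, 2 and 3, were the lowest of the 3 for each of these genes. The GC trend was positive for these 3 keratins in siRNA 1 replicate 1 and negative in siRNA 2 replicates 2 and 3, and its part in the group differences was not tested beyond the removal given here. Without the trend, the KRT19 log2 change with siRNA 1 was -0.28, -0.28 and -0.28 in the 3 libraries, against -0.07, -0.33 and -0.33 before, and with siRNA 2 it was -0.13, -0.09 and -0.08, against -0.21, -0.48 and -0.47 before. In the fit without the trend, siRNA 1 changes were called for KRT8 at -0.24 (adjusted p = 0.00457), KRT18 at -0.27 (adjusted p = 0.000808) and KRT19 at -0.28 (adjusted p = 0.000232), and the siRNA 2 changes were -0.18 for KRT18 (adjusted p = 0.0071) and -0.10 for KRT19 (adjusted p = 0.0493). Between siRNA 2 and siRNA 1, KRT19 was not called as counted, at -0.14 ± 0.09 (adjusted p = 0.29), but after GC removal it was higher with siRNA 2 and called, at 0.18 (adjusted p = 0.00213). KRT18 between the siRNAs was -0.08 ± 0.08 as counted (adjusted p = 0.54) and 0.09 after removal (adjusted p = 0.119), and KRT8 was -0.20 ± 0.09 (adjusted p = 0.13) and -0.03 after removal (adjusted p = 0.662), while it was called without siRNA 2 replicate 1, at -0.30 (adjusted p = 0.0291). Without siRNA 1 replicate 1, the siRNA 1 changes of the same genes were also called, at -0.29 for KRT8 (adjusted p = 0.0318), -0.31 for KRT18 (adjusted p = 0.00545) and -0.33 for KRT19 (adjusted p = 0.0187). The siRNA 2 calls of KRT8, KRT18 and KRT19 were each lost without any of the control replicates or siRNA 2 replicate 2 or 3, and that of KRT18 also without siRNA 1 replicate 3. The log2 changes then ran from -0.40 to -0.35 for KRT8 (adjusted p up to 0.0854), from -0.31 to -0.27 for KRT18 (adjusted p up to 0.146) and from -0.38 to -0.33 for KRT19 (adjusted p up to 0.0942). The KRT18 call was also lost with upper quartile factors and without the filter. The KRT19 call was also lost without the filter, and with the replicate numbers as a block together with GC removal.

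KRT8 and KRT18 overlap by 525 exon bases on opposite strands, and KRT8 has 51 and KRT18 has 67 pseudogene rows in the table. The pseudogene rows summed to 0.529% to 0.691% of the KRT8 counts and to 0.195% to 0.360% of the KRT18 counts. How reads that map to several places were counted was not given in the sources used here, and both genes carry this uncertainty.

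**Figure D2:**
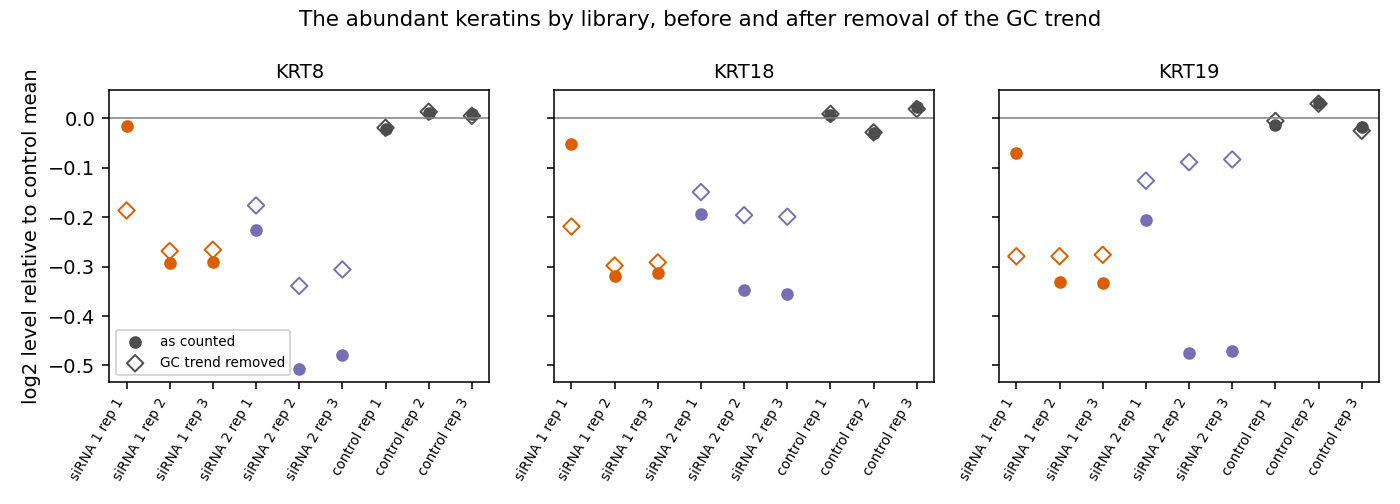
Log2 level of KRT8, KRT18 and KRT19 relative to the control mean (vertical axis) in each library of siRNA 1, siRNA 2 and control, as counted (filled circles) and after removal of the GC trend (open diamonds). For KRT19 the 3 siRNA 1 libraries lie at -0.28 after removal, and the siRNA 2 libraries lie between -0.13 and -0.08.

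KRT10 had 18.86, 16.77 and 16.89 CPM with siRNA 1, 15.84, 13.66 and 13.53 CPM with siRNA 2, and 19.67, 18.31 and 18.61 CPM in control. The siRNA 2 libraries all lay below the controls and below the siRNA 1 libraries, which overlapped the controls. The log2 change of KRT10 was -0.40 ± 0.10 with siRNA 2 (edgeR, adjusted p = 0.029), -0.11 ± 0.10 with siRNA 1 (adjusted p = 0.57) and -0.29 ± 0.10 between siRNA 2 and siRNA 1 (adjusted p = 0.066). The siRNA 2 call of KRT10 was lost with upper quartile factors and without any control replicate, siRNA 1 replicate 3 or siRNA 2 replicate 2 or 3, where the log2 change ran from -0.41 to -0.35 (adjusted p up to 0.125). The difference of KRT10 between the siRNAs was called with DESeq2 and without siRNA 2 replicate 1, at -0.36 in the second case (adjusted p = 0.0263), and its adjusted p ranged up to 0.209 over the 18 alternatives. KRT10-AS1 shares 56 exon bases with KRT10 on the opposite strand. It stood at 15.97 ± 1.15 CPM with siRNA 1, 14.6 ± 1.29 CPM with siRNA 2 and 14.3 ± 0.647 CPM in control, and was not called in any of the 3 comparisons. KRT80, a type II keratin gene of the chromosome 12 cluster that also holds KRT7, had 7.66, 5.75 and 7.16 CPM with siRNA 1, 2.86, 3.91 and 3.29 CPM with siRNA 2, and 8.53, 8.34 and 8.17 CPM in control. The siRNA 2 libraries were well below both other groups, and the siRNA 1 libraries were below the controls too. KRT80 fell with siRNA 2 by 1.32 ± 0.16 on the log2 scale (adjusted p = 0.00098) and the difference of siRNA 2 from siRNA 1 was -1.03 ± 0.16 (adjusted p = 0.0022). With siRNA 1 the KRT80 change was -0.28 ± 0.15 (adjusted p = 0.3). The siRNA 2 call of KRT80 held in all 18 alternatives tried, with a highest adjusted p of 0.0084.

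KRT20 and KRT23, both type I keratins, were higher with siRNA 2. KRT20 had 40, 66 and 67 counts with siRNA 1, 120, 130 and 89 counts with siRNA 2, and 25, 28 and 26 counts in control. The groups did not overlap, and the control libraries had the fewest counts. In CPM, KRT20 was at 0.898 ± 0.209 with siRNA 1, 1.83 ± 0.400 with siRNA 2 and 0.443 ± 0.0438 in control (SD, n = 3 each). The log2 change was 2.04 ± 0.28 with siRNA 2 (edgeR, adjusted p = 0.0017), 1.02 ± 0.28 with siRNA 1 (adjusted p = 0.056) and 1.03 ± 0.26 between siRNA 2 and siRNA 1 (adjusted p = 0.022). The siRNA 1 change was called without siRNA 1 replicate 1, at 1.20 (adjusted p = 0.021), and with DESeq2, with upper quartile factors and after GC removal, and its adjusted p ranged up to 0.171 over the 18 alternatives. The call between the siRNAs was lost without siRNA 1 replicate 1, without siRNA 2 replicate 2 and in a fit of only those groups, with adjusted p up to 0.0893. KRT23, a type I keratin known in mouse liver as stress-inducible, had 13.73, 13.01 and 10.99 CPM with siRNA 1, 26.77, 26.16 and 24.92 CPM with siRNA 2, and 12.13, 11.45 and 10.83 CPM in control. Every siRNA 2 library was above every other library, and the siRNA 1 and control libraries overlapped. KRT23 rose with siRNA 2 by a log2 change of 1.18 ± 0.11 (adjusted p = 0.00029) and by 1.04 ± 0.11 relative to siRNA 1 (adjusted p = 0.00028), both called in all 18 alternatives. With siRNA 1 the change was 0.13 ± 0.11 (adjusted p = 0.5), and 0.09 after GC removal (adjusted p = 0.578). KRT20 has a GC content of 45.7% and KRT23 of 50.3%, the lowest of the 8, and GC removal moved their siRNA 2 changes to 1.97 and 1.18.

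The members were set against all genes tested. With siRNA 2, 7 of the 7 keratins other than KRT7 were called, 2 higher and 5 lower, where 13.8% of the tested genes were called (6.15% higher and 7.61% lower), and all 7 had no overlap with control, where 39.9% of genes had none. With siRNA 1, 0 of 7 were called by edgeR where 7.08% of genes were (3.72% higher and 3.36% lower). At an unadjusted p under 0.05 there were 3 of the 7, KRT18, KRT19 and KRT20, where 23.5% of genes were, DESeq2 called 1 (KRT20) and limma-voom called 0. With siRNA 1, 4 of the 7 keratins had no overlap with control, where 34.7% of genes had none. Between the siRNAs, 4 of 8 keratins were called where 22.4% of genes were, 3 higher with siRNA 2 (KRT7, KRT20 and KRT23) where 10.1% of genes were, and 1 lower (KRT80) where 12.3% were. Between the siRNAs, 5 of 8 keratins had no overlap, where 38.6% of genes had none. The median log2 change of the 7 members other than KRT7 was -0.19 with siRNA 1 and -0.38 with siRNA 2. Over all 8 members it was -0.11 between siRNA 2 and siRNA 1. The medians over all genes tested were -0.02, -0.01 and 0.00 in the same comparisons. These counts are descriptions of a list chosen with results of these data known. Without any single control replicate, and without siRNA 2 replicate 2 or 3, 3 keratins were called with siRNA 2 (KRT20, KRT23 and KRT80), and the genes called in all fell to between 1080 and 1105, against 2872 with every library.

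**Figure D3:**
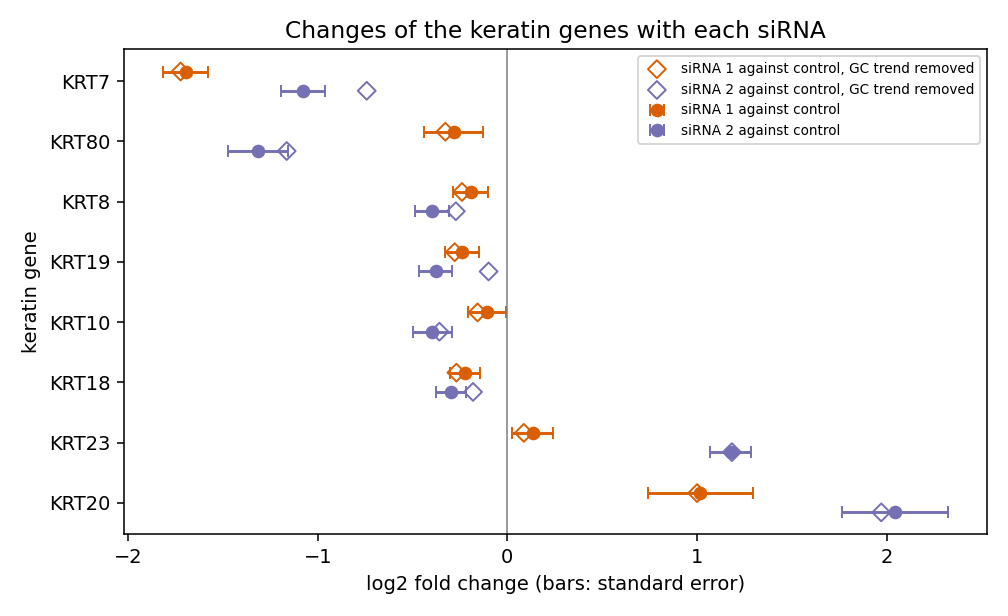
Log2 fold change of each keratin with siRNA 1 and with siRNA 2, both against control (filled circles, bars are standard errors), and after removal of the GC trend (open diamonds). KRT7 moved most with siRNA 1, KRT20 and KRT23 were highest with siRNA 2, and the diamonds of KRT19 and KRT7 with siRNA 2 lie nearer to 0.

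Keratin pairs are needed in matched amounts, so ratios within a library were compared. The log2 ratio of KRT8 to KRT18 per length was 0.99 ± 0.0075 with siRNA 1, 0.85 ± 0.0661 with siRNA 2 and 0.96 ± 0.0368 in control (SD, n = 3 each). The difference was 0.03 with siRNA 1 (exact permutation test, two-sided p = 0.4) and -0.10 with siRNA 2 (p = 0.1), and -0.13 between siRNA 2 and siRNA 1 (p = 0.1), where 0.1 is the smallest p that 3 against 3 libraries allow. The summed type II over type I members had a log2 ratio of -1.33 with siRNA 1, -1.41 with siRNA 2 and -1.36 in control. The differences for that ratio were 0.03 for siRNA 1 against control, -0.05 for siRNA 2 against control and -0.08 between siRNA 2 and siRNA 1. The differences from control are a description, since the sum holds KRT7, and between the siRNAs the exact permutation p was 0.1. After GC removal the difference of that ratio was -0.17 for siRNA 2 against control and -0.20 between siRNA 2 and siRNA 1. No pair ratio could pass a 0.05 threshold in this design.

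For the members with an entry in the RefSeq promoter table, the window from 250 bases before to 50 bases after the start was searched in both strands for 6 motifs. These were the AP-1 motif TGANTCA, the GC box GGGCGG, the TATA box TATAAA, the grainyhead motif AACCGGTT, the E-box CAGGTG and the caudal-type motif TTTATN. The table is on build GRCh38.p14, not the hg19 of the counts, and 3 of the 8 keratins had an entry, KRT8, KRT10 and KRT20. KRT20 and KRT10 are shown because they are type I genes on chromosome 17 that moved in opposite directions with siRNA 2. The KRT20 window is chr17:40885193-40885492 and the KRT10 window is chr17:40822565-40822864, both on the minus strand, written 5′ to 3′ with motif matches in capitals.
KRT20: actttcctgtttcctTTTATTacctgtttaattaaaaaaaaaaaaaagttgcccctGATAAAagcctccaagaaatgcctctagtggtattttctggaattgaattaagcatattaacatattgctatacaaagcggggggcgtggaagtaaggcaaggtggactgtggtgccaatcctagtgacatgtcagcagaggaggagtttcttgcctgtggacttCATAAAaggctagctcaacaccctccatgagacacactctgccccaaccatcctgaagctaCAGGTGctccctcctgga
KRT10: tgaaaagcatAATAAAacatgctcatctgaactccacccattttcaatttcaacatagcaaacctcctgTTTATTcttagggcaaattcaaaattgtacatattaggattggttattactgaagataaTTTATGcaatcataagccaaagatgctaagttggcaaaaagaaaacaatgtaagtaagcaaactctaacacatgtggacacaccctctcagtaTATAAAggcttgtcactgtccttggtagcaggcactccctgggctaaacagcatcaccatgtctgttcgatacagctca
The KRT20 window holds TTTATN at -235, and on the other strand at -194 and at -29, and CAGGTG at 33, counted with 1 at the first transcribed base and -1 before it. The KRT10 window holds TATAAA at -29, which on the other strand also reads as TTTATN, and TTTATN at -181, -122 and, on the other strand, -240. Of 35116 promoters in the table, 34.8% hold TTTATN, 20.6% hold CAGGTG, 11.5% hold TATAAA, 7.71% hold TGANTCA, 45.0% hold GGGCGG and 0.134% hold AACCGGTT. The KRT8 window, chr12:52926420-52926719, holds none of the 6 motifs. Only 1 window per gene was searched. KRT8 has 9 coding transcripts, so any other start of this gene was not covered. These matches are descriptions of the letters only. KRT7, KRT18, KRT19, KRT23 and KRT80 are named without a window.

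Other keratins were counted from lists of the type I and type II genes that are not members. Of 24 other type I keratins 14 were tested, and 1 rose and 0 fell with siRNA 1, 5 rose and 1 fell with siRNA 2, and 4 rose and 1 fell between siRNA 2 and siRNA 1. The median log2 change of those tested was 0.09 with siRNA 1, 0.89 with siRNA 2 and 0.85 between the siRNAs. Later medians are given in the same order of comparisons. Many of these genes had few counts. The 0.89 is the value of KRT14 and KRT17, neither of them called, at 0.174 and 0.487 CPM with siRNA 2. Of 23 other type II keratins 5 were tested, and 1 rose and 1 fell with siRNA 1, 0 rose and 3 fell with siRNA 2, and 1 rose and 1 fell between the siRNAs, with medians of 0.75, -1.21 and -2.42. The 0.75 is the value of KRT6B, not called, at 0.851 CPM with siRNA 1 and 0.508 CPM in control. The -2.42 is that of KRT5, not called between the siRNAs, at 0.0606 CPM with siRNA 2 and 0.329 CPM with siRNA 1. KRT15, a keratin of basal epithelial cells, stood at 100.3 ± 12.8 CPM with siRNA 1, 49.0 ± 3.86 CPM with siRNA 2 and 92.9 ± 7.02 CPM in control (SD, n = 3 each). It fell with siRNA 2 by 0.92 ± 0.11 on the log2 scale (edgeR, adjusted p = 0.00081). KRT13, a keratin of non-cornifying stratified epithelium, stood at 1.05 ± 0.303 CPM with siRNA 1, 3.99 ± 0.495 CPM with siRNA 2 and 1.67 ± 0.328 CPM in control, and rose with siRNA 2 by a log2 change of 1.26 ± 0.24 (adjusted p = 0.0093). KRT32, a hair keratin, rose with siRNA 1 by 1.12 ± 0.17 (adjusted p = 0.0045) and with siRNA 2 by 0.79 ± 0.16 (adjusted p = 0.013), the call with siRNA 2 lost without control replicate 1 or 2 or siRNA 2 replicate 3 (adjusted p up to 0.0642). KRT37, a further hair keratin, rose with siRNA 2 by 1.78 ± 0.34 (adjusted p = 0.0089). KRT6A, an inducible keratin of injured epithelium, stood at 3.49 ± 0.768 CPM with siRNA 1, 0.601 ± 0.238 CPM with siRNA 2 and 1.55 ± 0.399 CPM in control. Its log2 change between siRNA 2 and siRNA 1 was -2.53 ± 0.33 (adjusted p = 0.00099). KRT5, a basal keratin, had 21, 20 and 22 counts with siRNA 1, 3, 8 and 0 with siRNA 2 and 0 in each control library. KRT36 had 0 in each siRNA 1 library, 24, 47 and 53 counts with siRNA 2, and 0, 0 and 7 counts in control.

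**Figure D4:**
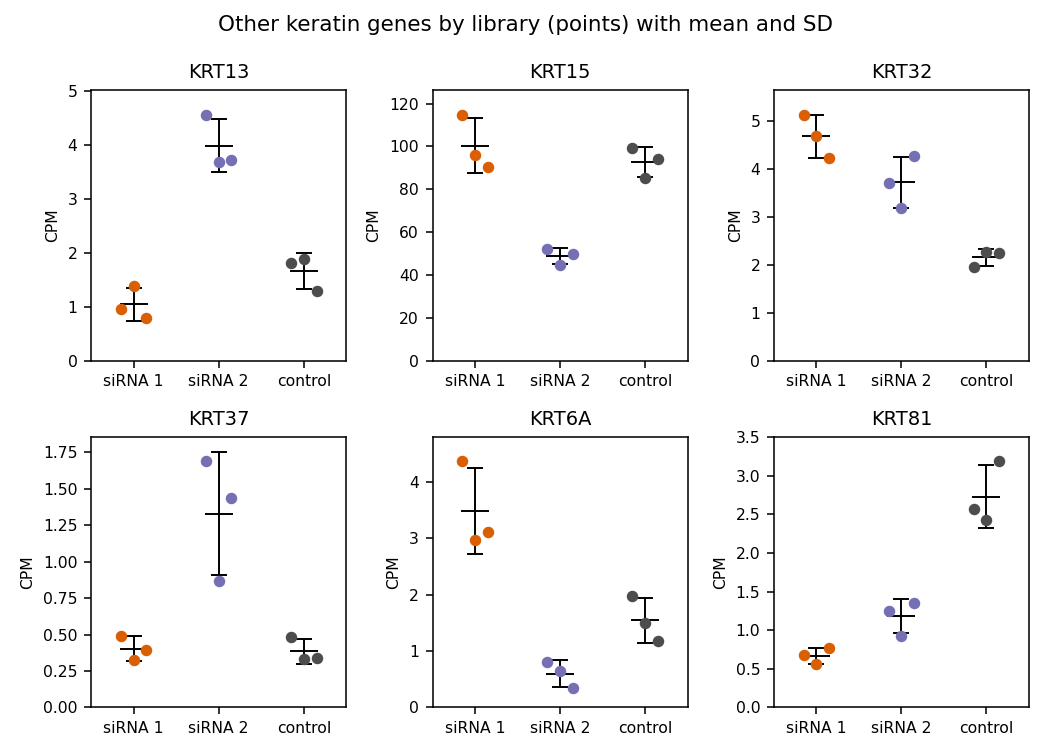
CPM of KRT13, KRT15, KRT32, KRT37, KRT6A and KRT81 in each library with siRNA 1, siRNA 2 and control, with mean and SD; each axis starts at 0. KRT15 and KRT6A are lowest with siRNA 2, KRT13 and KRT37 are highest there, and KRT81 is lower than control with both siRNAs.

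On chromosome 12 KRT7 lies beside hair keratin genes. KRT81 stood at 0.667 ± 0.103 CPM with siRNA 1, 1.18 ± 0.222 CPM with siRNA 2 and 2.73 ± 0.403 CPM in control (SD, n = 3 each), and no siRNA library reached a control. It fell with siRNA 1 by 2.03 ± 0.23 on the log2 scale (edgeR, adjusted p = 0.0015) and with siRNA 2 by 1.21 ± 0.23 (adjusted p = 0.008). KRT86, which overlaps KRT7 on the same strand without shared exon bases, had 3, 17 and 2 counts with siRNA 1, 3, 0 and 0 with siRNA 2, and 30, 19 and 19 in control. The hair keratins KRT81, KRT83 and KRT86 are near-identical in sequence, so their counts are uncertain. KRT80, KRT7 and KRT81 were all lower than control in the siRNA 2 libraries, while KRT80 was not called with siRNA 1.

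Keratin filaments are anchored at desmosomes and hemidesmosomes. Of 21 such genes 17 were tested, and 1 rose and 0 fell with siRNA 1, 5 rose and 5 fell with siRNA 2, and 4 rose and 6 fell between siRNA 2 and siRNA 1, with median log2 changes of 0.06, 0.24 and 0.11. PKP4, a plakophilin family protein, rose with siRNA 2 by a log2 change of 0.55 ± 0.07 (edgeR, adjusted p = 0.00098), and PPL, the linker protein periplakin, fell by 0.48 ± 0.08 (adjusted p = 0.0045). PLEC, the cytolinker plectin, fell by 0.43 ± 0.09 with siRNA 2 (adjusted p = 0.016), but its change was 0.04 after GC removal, and the call was lost without any control replicate or siRNA 2 replicate 2 or 3 (adjusted p up to 0.0778). EPPK1, the keratin-binding epiplakin, fell by 0.45 ± 0.12 (adjusted p = 0.039), its change was 0.07 after GC removal, and the call was lost without any control replicate, siRNA 1 replicate 2 or 3, or siRNA 2 replicate 2 or 3 (adjusted p up to 0.148). Of 12 genes of keratin organisation and turnover, all tested, 2 rose and 0 fell with siRNA 1, 3 rose and 1 fell with siRNA 2, and 2 rose and 5 fell between siRNA 2 and siRNA 1, with medians of 0.12, -0.12 and -0.12. SFN, the 14-3-3 sigma protein that binds keratins, rose with siRNA 1 by 0.83 ± 0.09 (adjusted p = 0.0012), at 399 ± 55.5 CPM with siRNA 1 and 224 ± 6.72 CPM in control. Of 15 other intermediate filament genes 10 were tested, and 0 rose and 2 fell with siRNA 1, 1 rose and 1 fell with siRNA 2, and 4 rose and 2 fell between the siRNAs, with medians of -0.16, 0.03 and -0.01. NES, the filament protein nestin, stood at 32.5 ± 3.28 CPM with siRNA 1, 87.7 ± 0.255 CPM with siRNA 2 and 66.0 ± 1.58 CPM in control, and fell with siRNA 1 by 1.02 ± 0.08 (adjusted p = 0.00025). With siRNA 2, NES rose by 0.41 ± 0.08 (adjusted p = 0.0093), and that call was lost without control replicate 2 or 3 (adjusted p up to 0.0573).

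Transcription factors of epithelial cells were counted in the same way. Of 20 such genes 18 were tested, and 3 rose and 1 fell with siRNA 1, 1 rose and 4 fell with siRNA 2, and 3 rose and 8 fell between siRNA 2 and siRNA 1, with median log2 changes of -0.06, -0.12 and -0.36. ELF3, an epithelial ETS factor, stood at 119.2 ± 6.05 CPM with siRNA 1, 76.7 ± 7.83 CPM with siRNA 2 and 130.0 ± 2.17 CPM in control (SD, n = 3 each), and fell with siRNA 2 by 0.76 ± 0.08 on the log2 scale (edgeR, adjusted p = 0.00059). KLF4, a factor of differentiating gut epithelium, fell with siRNA 2 by 0.70 ± 0.09 (adjusted p = 0.0013). GRHL2, a grainyhead factor of epithelial junctions, rose with siRNA 1 by 0.68 ± 0.11 (adjusted p = 0.007). CDX2, a factor of intestinal identity, stood at 14.97 ± 1.75 CPM with siRNA 1, 11.3 ± 1.22 CPM with siRNA 2 and 11.9 ± 0.704 CPM in control, and CDX1 was at 0 in all libraries.

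Genes whose level followed KRT7 most closely were found by the mean absolute difference, over the 9 libraries, between each gene's log2 level and that of KRT7, each relative to its own control mean, among 12280 genes. APOLD1 was nearest, at 0.175, with changes of -1.48 with siRNA 1 and -1.19 with siRNA 2. The identifier ENSG00000233589, listed by its identifier alone in the table of names, followed at 0.277. SMAD7, an inhibitor of TGF-beta signalling, was at 0.299, and CCND1, which encodes cyclin D1, at 0.358. SSC4D was at 0.344, with a change of -1.56 with siRNA 1 and -0.30 with siRNA 2, the last of which was 0.00 after GC removal. Among the other keratins of the list, KRT80 was nearest to KRT7 at 0.561, followed by KRT19 at 0.731 and KRT8 at 0.740, while KRT23 was at 1.37 and KRT20 at 1.93. This ranking is a description over the same libraries that chose KRT7.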

How the data were processed

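The values used are raw counts for each Ensembl gene in 9 libraries, which the authors deposited as 1 table of whole numbers. Reads were placed on hg19, per the submitters' processing notes. Aligner, counter, annotation and strand setting were not given in the sources used here. Groups were taken from the titles and treatments. Symbols came from a table of Ensembl identifiers, which matched 61757 of 61806 identifiers.

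Counts were tested in R 4.3.3 with edgeR 4.0.16, by the quasi-likelihood test (two-sided) with TMM factors, in 1 fit of group means over all 9 libraries without a replicate block. Genes with low counts were left out (filterByExpr, minimum count 10, minimum total 15), which left 20868 genes with at least 99.95% of the counts of each library. Benjamini-Hochberg adjustment ran over these genes. CPM used library totals scaled by TMM factors, standard errors follow from the F statistic, and pair ratios were tested by exact permutation. The fit was tested on simulated data. Alternatives were RLE and upper quartile factors, no filter, DESeq2 1.42.0, limma 3.58.1 (voom), a replicate block, removal of a GC trend per library, both together, a fit of only the groups compared, each library left out, and other transcript lengths, of which the principal transcript was added after the data were seen.

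The members and the gene lists were chosen with earlier results of these data known. The genes named are the 8 members, their antisense and overlapping genes, at most 4 called genes per list, direction and comparison by adjusted p, and the 5 genes that follow KRT7 most closely; KRT86, KRT83 and KRT36 counts and genes at 0 were named after their values were seen.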

Additional observations from a re-analysis of the deposited data

Results flagged for a closer look

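The effects of the siRNAs differed from each other, by the test of that difference itself in edgeR, for 4 of the 8 keratins. Over all tested genes, 22.4% were called in that comparison. Between siRNA 2 and siRNA 1 the log2 change was 0.62 for KRT7 (adjusted p = 0.0059), 1.03 for KRT20 (adjusted p = 0.022), 1.04 for KRT23 (adjusted p = 0.00028) and -1.03 for KRT80 (adjusted p = 0.0022). Each of the 4 keratins was higher or lower in all 3 siRNA 2 libraries than in all 3 siRNA 1 libraries, where 38.6% of tested genes had no overlap. The cause was not tested.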

How the results depend on the processing

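KRT20 had 25 to 130 counts in a library, the fewest of the 8 keratins. With siRNA 1, keratins called were 1 with upper quartile factors, 1 with DESeq2, 4 after GC removal, 4 with the block and GC removal, and 0 to 4 when a library was left out. With siRNA 2 (7) they were 5 with upper quartile factors, 5 without the filter, 6 with the block and GC removal, and 3 to 7 when a library was left out, and between the siRNAs (4) they were 3 to 6 when a library was left out, 5 with DESeq2 and after GC removal, and 3 in a fit of only those groups. All genes called with siRNA 1 (1478) were 969 without the filter, 2943 with DESeq2, 4104 after GC removal, 3780 with the block and GC removal, and 439 to 2538 with a library left out. Those with siRNA 2 (2872) were 4411 after GC removal, 4664 in a fit of only those groups, and 1080 to 5289 with a library left out. Between siRNA 2 and siRNA 1 (4681) they were 2325 in a fit of only those groups and 2130 to 5843 with a library left out. With siRNA 2, 1284 genes were higher and 1588 lower, against 1420 and 1254 with upper quartile factors. The labels do not say whether the replicate numbers pair the libraries. After group means were removed, same-numbered libraries of the siRNAs correlated at 0.0213 to 0.0962 and others at -0.0711 to 0.0279. Between an siRNA and control, same-numbered libraries correlated at -0.0449 to -0.00901 and others at -0.00668 to 0.0333. These values cannot exclude a pairing. With the replicate numbers as a block, 1582, 3311 and 5150 genes and 0, 7 and 5 keratins were called in the 3 comparisons, and KRT10 was gained between the siRNAs. Between siRNA 2 and siRNA 1, the KRT18 change turned from -0.08 to 0.0878 after GC removal, 0.0880 with the block as well and between -0.129 and 0.0177 with a library left out (above 0 without siRNA 1 replicate 1), and KRT19 from -0.14 to 0.179, which was called (adjusted p = 0.00213; 0.1789 and adjusted p = 0.0057 with the block). With siRNA 2, GC removal turned PLEC to 0.0435, EPPK1 to 0.0664 and SSC4D to 0.0019, and with the block to 0.0399, 0.0632 and 0.0026. Of 1728 alternative values for named genes other than keratins of the list, 1483 were the same, 239 lost the call and 6 turned direction. The same meant the same call and direction. For the genes that follow KRT7, which had no test against control, it meant the same direction and a size within the SD between libraries of a group. The cause was not tested.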
